A study of Arabidopsis thaliana with 6 samples.

Results

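The B-box genes BBX18 to BBX32 of Arabidopsis thaliana are described here through 10 genes in plants of the spliceosome mutant brr2a-2 and of the wild type Col. They are BBX18 (AT2G21320), BBX19 (AT4G38960), BBX20 (AT4G39070), BBX21 (AT1G75540), BBX22 (AT1G78600), BBX24 (AT1G06040), BBX25 (AT2G31380), BBX30 (AT4G15248), BBX31 (AT3G21890) and BBX32 (AT3G21150). All 10 genes were found among the 28775 genes of the count table. The genes were selected on their measured levels in this contrast, so their levels and fold changes are given as a description and without a test.

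BRR2a is an RNA helicase of the spliceosome that unwinds the U4 and U6 RNAs before splicing can start. The labels call the mutant genotype cao mutant, and the study names the allele brr2a-2, a substitution in BRR2a that came from a chemical mutagenesis of an msi1-tap1 line and was backcrossed to Col. All plants were of ecotype Col-0, were grown in short days to an age of 15 days and were harvested 1 h before darkness, with 3 biological replicates of brr2a-2 and 3 of Col. The labels name rosette leaves, and the methods of the study name seedlings. The 5 leaf markers listed summed to between 11762 and 12649 CPM (counts per 1000000 counts of a library) in brr2a-2 and to between 5224 and 14264 CPM in Col. The 5 flower markers summed to at most 3.48 CPM in brr2a-2 and 4.24 CPM in Col, with AP3 at 0 in every library. The 6 root markers summed to between 2141 and 3470 CPM in brr2a-2 and to between 1108 and 3466 CPM in Col, nearly all of it from BGLU23. Of the others, NRT2.1 had 0 counts in every brr2a-2 library and 25, 22 and 3 counts in Col, and IRT1, COBL9, EXPA7 and EXPA18 had at most 4.85 CPM in any library. Fewer cells of a type and less RNA per cell cannot be told apart in such bulk samples.

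B-box proteins are zinc finger proteins that act in the response to light, in the opening of the seedling and in the choice of flowering time. BBX20, BBX21 and BBX22 promote light responses, and BBX21 and BBX22 work together with the transcription factor HY5. BBX18, BBX19, BBX24, BBX25 and BBX32 act in the opposite direction, and BBX24 and BBX25 do so by interfering with HY5. BBX30 and BBX31 are microproteins that can tie the flowering regulator CONSTANS to the corepressor TOPLESS. Many B-box transcripts follow the day, and several are known targets of the circadian clock or of light.

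A search of the RefSeq proteins of TAIR10.1 for the spacing of zinc-binding residues in a B-box found 2 matches in each of BBX18, BBX19, BBX20, BBX21, BBX22, BBX24 and BBX25. It found 1 match in each of BBX30, BBX31 and BBX32. The shortest proteins were BBX30 with 117 residues and BBX31 with 121 residues, and the longest was BBX21 with 331 residues. BBX18 and BBX19 were 78.0% identical over their aligned residues, BBX24 and BBX25 73.3%, and BBX30 and BBX31 65.5%. BBX24 and BBX25 shared no run of identical coding bases longer than 32 bp.

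BBX21, BBX22 and BBX24 lie on chromosome 1, BBX18 and BBX25 on chromosome 2, BBX31 and BBX32 on chromosome 3, and BBX19, BBX20 and BBX30 on chromosome 4. In TAIR10.1, BBX18 spans chr2:9126263-9127987, BBX25 chr2:13381767-13383470 and BBX30 chr4:8708841-8709482 on the plus strand, and BBX24 spans chr1:1828340-1829983 and BBX31 chr3:7708833-7709933 on the minus strand.

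The members fell into 7 genes with introns and 3 genes, BBX30, BBX31 and BBX32, without an intron. As BRR2a acts in splicing, the introns are shown that the results below return to, read from TAIR10.1 on the coding strand. The capitals mark the first and last pairs of bases of each intron, where the spliceosome cuts. The introns of BBX21 lie at chr1:28366251-28366345 (95 bp) and chr1:28366772-28367020 (249 bp) on the plus strand. Intron 2 of BBX22 lies at chr1:29568201-29568398 (198 bp) on the plus strand. The introns of BBX24 lie at chr1:1829308-1829476 (169 bp) and chr1:1828905-1828986 (82 bp) on the minus strand. All of these introns lie within the coding sequence.
BBX21 intron 1: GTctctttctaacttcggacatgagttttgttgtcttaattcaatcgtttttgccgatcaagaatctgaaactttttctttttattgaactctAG
BBX21 intron 2: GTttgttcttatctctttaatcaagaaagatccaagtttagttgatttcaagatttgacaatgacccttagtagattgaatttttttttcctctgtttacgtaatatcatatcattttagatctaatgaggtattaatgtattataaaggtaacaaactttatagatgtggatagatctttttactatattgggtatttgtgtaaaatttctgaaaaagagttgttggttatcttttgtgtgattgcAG
BBX22 intron 2: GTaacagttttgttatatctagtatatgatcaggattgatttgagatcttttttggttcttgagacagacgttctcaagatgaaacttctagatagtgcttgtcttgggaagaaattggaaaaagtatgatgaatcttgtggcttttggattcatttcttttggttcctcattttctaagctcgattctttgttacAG
BBX24 intron 1: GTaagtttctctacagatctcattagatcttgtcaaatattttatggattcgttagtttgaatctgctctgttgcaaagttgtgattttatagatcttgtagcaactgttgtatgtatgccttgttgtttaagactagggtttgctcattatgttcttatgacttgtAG
BBX24 intron 2: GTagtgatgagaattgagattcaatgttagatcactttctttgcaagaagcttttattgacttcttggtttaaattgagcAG
Intron 2 of BBX24 is kept in a second annotated transcript of the gene. The members' remaining placed introns were between 76 and 632 bp long, and those of BBX19 were not placed, as the annotation holds another number of introns for it than the count table.

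Sites of light and clock regulation were looked for in the 300 bases before each annotated gene start, on both strands. The motifs searched were the G-box CACGTG, which HY5 and the phytochrome-interacting factors can bind, the evening element AAAATATCT and the CCA1-binding site AAAAATCT. The G-box was found in the window of BBX30 and the evening element in that of BBX24. The windows of BBX18, BBX19, BBX20, BBX21, BBX25, BBX31 and BBX32 held none of the 3 motifs. Among 27443 windows of all genes, 7.09% held the G-box, 2.79% the evening element and 7.94% the CCA1-binding site. Both windows are printed from TAIR10.1 with the match in capitals, for BBX30 at chr4:8708541-8708840 (plus strand) and BBX24 at chr1:1829984-1830283 (minus strand).
BBX30 upstream: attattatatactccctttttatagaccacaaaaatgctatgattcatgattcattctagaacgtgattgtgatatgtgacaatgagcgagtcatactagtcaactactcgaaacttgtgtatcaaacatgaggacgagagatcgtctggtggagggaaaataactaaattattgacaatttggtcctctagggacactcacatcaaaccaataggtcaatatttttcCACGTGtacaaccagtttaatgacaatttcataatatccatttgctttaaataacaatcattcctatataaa
BBX24 upstream: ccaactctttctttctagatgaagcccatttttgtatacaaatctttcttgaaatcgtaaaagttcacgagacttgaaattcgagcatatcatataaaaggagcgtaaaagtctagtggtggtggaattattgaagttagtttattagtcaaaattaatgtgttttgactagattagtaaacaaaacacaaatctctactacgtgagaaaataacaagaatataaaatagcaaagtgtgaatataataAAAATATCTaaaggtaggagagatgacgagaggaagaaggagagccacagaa
A match is a description of the sequence, and whether a factor binds there was not measured.

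The libraries held between 18692830 and 23184873 gene counts in brr2a-2 and between 19468030 and 29830638 in Col. Of the 19121 genes that passed a filter on low counts, edgeR's quasi-likelihood test with Benjamini-Hochberg adjustment called 0 genes higher (0%) and 0 genes lower (0%) in brr2a-2 at an adjusted p under 0.05. The smallest adjusted p was 0.0920. At an unadjusted p under 0.05 the test found 1326 genes higher and 1428 lower. DESeq2 called 249 genes higher (1.25% of 19914) and 170 genes lower (0.854%). Every brr2a-2 library lay above every Col library for 10.8% of the 19121 genes and below for 10.2%. The median log2 fold change over all genes tested was -0.04.

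BBX24 was the most abundant member in brr2a-2, and BBX22 the most abundant in Col. Per kb of exon, BBX24 had 85.1 ± 15.7 CPM in brr2a-2 and 49.7 ± 10.9 CPM in Col (SD, n = 3 each). BBX22 had 66.4 ± 11.1 CPM per kb in brr2a-2 and 51.5 ± 12.4 CPM per kb in Col. The ranges of mean ± SD of these neighbours overlapped in each genotype. BBX21 followed in both genotypes, with 23.9 ± 1.07 CPM per kb in brr2a-2 and 24.1 ± 7.0 CPM per kb in Col. BBX18 and BBX25 came next with 18.1 ± 5.69 and 16.0 ± 7.20 CPM per kb in brr2a-2, where their ranges of mean ± SD overlapped with each other and with that of BBX21. In Col, BBX18 had 5.93 ± 1.94 and BBX25 3.29 ± 1.67 CPM per kb. BBX19, BBX20, BBX30, BBX31 and BBX32 had at most 2.83 CPM per kb on average in either genotype.

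The levels of the 3 members that promote light responses overlapped between the genotypes. BBX21, which activates HY5 and anthocyanin genes, had 37.8, 39.1 and 35.8 CPM in brr2a-2 and 30.1, 33.1 and 50.4 CPM in Col. The brr2a-2 libraries lay inside the range of Col, and the log2 fold change was -0.01 ± 0.22 (SE). BBX22 had 131, 121 and 93.8 CPM in brr2a-2 and 65.0, 106 and 96.7 CPM in Col, with a log2 fold change of 0.37 ± 0.24. Its groups overlapped, because brr2a-2 replicate 3 lay below Col replicates 2 and 3. BBX20, a gene that the brassinosteroid factor BZR1 represses, had 1.48, 1.06 and 0.612 CPM in brr2a-2 and 1.18, 1.96 and 0.527 CPM in Col. Its log2 fold change of -0.21 ± 0.54 had no steady sign, being 0.28 without Col replicate 2 and -0.55 without Col replicate 3.

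Above, 5 members were described as acting against light responses. Of these, BBX18, BBX19, BBX24 and BBX25 had higher levels in every brr2a-2 library than in any Col library. This held for 10.8% of all genes tested, and the members were selected on this contrast. BBX18 had 22.5, 24.2 and 12.7 CPM in brr2a-2 and 4.56, 8.75 and 6.12 CPM in Col, a log2 fold change of 1.62 ± 0.33. Its close relative BBX19, which also binds CONSTANS and can delay flowering, had 6.37, 5.79 and 3.17 CPM in brr2a-2 and 1.87, 2.65 and 2.37 CPM in Col. The log2 fold change of BBX19 was 1.16 ± 0.32. In both genes every brr2a-2 library lay above every Col library, and brr2a-2 replicate 3 was the closest to Col.

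BBX24, also known as STO, had 151, 121 and 105 CPM in brr2a-2 and 54.8, 81.9 and 83.3 CPM in Col. The groups did not overlap, and the log2 fold change was 0.78 ± 0.23. Its paralog BBX25, also known as STH, had 29.5, 20.0 and 11.2 CPM in brr2a-2 and 2.14, 6.38 and 4.01 CPM in Col. The groups of BBX25 did not overlap either, and its log2 fold change of 2.29 ± 0.48 corresponded to a 4.88-fold higher level. The annotation places AT1G06045 on the opposite strand over 344 bp of BBX24 and AT2G31390 over 48 bp of BBX25. Whether the counting used strand is not given in the sources used here, so reads of these overlaps cannot be assigned to a strand.

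BBX32, a protein that binds BBX21 and lowers its activity, was rare. It had 27, 22 and 1 counts in brr2a-2 and 4, 3 and 0 counts in Col, and did not pass the filter. As levels these were 1.25, 1.06 and 0.0556 CPM in brr2a-2 and 0.121, 0.140 and 0 CPM in Col. Its groups overlapped through brr2a-2 replicate 3, which lay below 2 of the Col libraries. The count of 0 in Col replicate 3 allows a level of up to 0.158 CPM, from 3 counts. Over the summed libraries the ratio of brr2a-2 to Col was 8.70, with an exact 95% interval from 3.93 to 22.8 that covers counting error only. The interval leaves out the spread between libraries and the selection of the gene, so it is no test of a difference.

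Both microprotein genes had low levels that were higher in brr2a-2. BBX31, also called miP1a, had 3.05, 4.54 and 1.22 CPM in brr2a-2 and 0.151, 0.512 and 0.580 CPM in Col. The groups of BBX31 did not overlap, and its log2 fold change of 2.87 ± 0.66 was the largest among the 8 members fitted. That value rested on 66, 94 and 22 counts in brr2a-2 and 5, 11 and 11 counts in Col. BBX31 passed the filter only through its brr2a-2 counts, and was not tested at a minimum count of 30. BBX30, also called miP1b, had 21, 17 and 7 counts in brr2a-2 and 4, 4 and 2 counts in Col and did not pass the filter. In CPM, BBX30 had 0.969, 0.821 and 0.389 in brr2a-2 and 0.121, 0.186 and 0.106 in Col, without overlap. Its ratio over the summed libraries was 5.48, with an exact counting interval from 2.72 to 12.2 that has the same limits as that of BBX32. Each of these genes has a longer B-box gene as its neighbour on the other strand, BBX9 at 284 bp from BBX30 and BBX10 at 486 bp from BBX31. BBX9 had 0 counts in every brr2a-2 library and at most 2 in a Col library. BBX10 had at most 6 counts in a brr2a-2 library and at most 2 in a Col library.

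**Figure D1:**
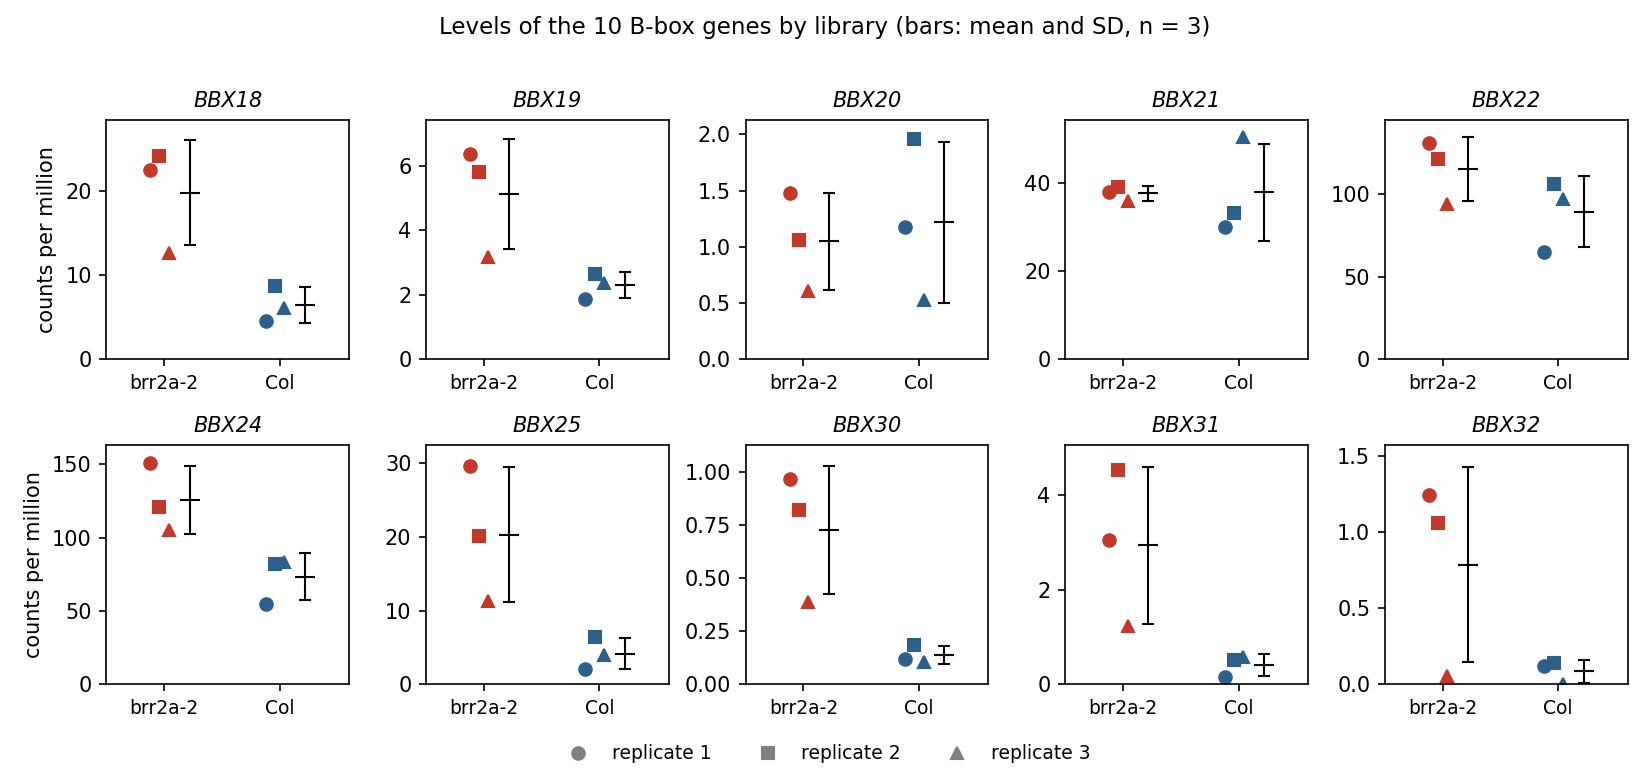
CPM of each of the 10 B-box genes in the 3 brr2a-2 libraries (red, left) and the 3 Col libraries (blue, right), with the mean and SD beside the points and the replicate given by the marker. The brr2a-2 libraries of BBX18, BBX19, BBX24, BBX25, BBX30 and BBX31 all lie above the Col libraries, and brr2a-2 replicate 3 (triangle) is the lowest brr2a-2 library in all 10 panels.

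Of the 10 members, 6 had every brr2a-2 library above every Col library (10.8% of all genes tested), 0 had every one below (10.2%), and 4 overlapped (BBX20, BBX21, BBX22 and BBX32). Of the 8 members that passed the filter, 5 lay above without overlap and 4 had a log2 fold change of at least 1, a size that 2.88% of all genes tested reached. Their median log2 fold change was 0.97. Since the members were selected on this contrast, these counts describe the selection. Members near the edge of non-overlap were BBX19, whose lowest brr2a-2 library had 3.17 CPM against 2.65 CPM in the highest Col library, and BBX22, whose lowest brr2a-2 library had 93.8 CPM against 106 CPM in the highest Col library.

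All 10 members had their lowest brr2a-2 level in replicate 3, whereas 39.8% of the genes tested did. In Col, 7 of 10 members were lowest in replicate 1, as were 6692 of the 19121 genes tested, and in that library the leaf markers summed to 5224 CPM, beside 14264 and 9240 CPM in Col replicates 2 and 3. Without Col replicate 1 the log2 fold changes were 1.41 for BBX18 and 0.60 for BBX24. Without brr2a-2 replicate 3 the log2 fold changes were 1.85 for BBX18, 1.41 for BBX19, 0.89 for BBX24, 2.58 for BBX25 and 3.24 for BBX31. Leaving out any single library kept these 5 log2 fold changes between 0.60 and 3.24. The part that these libraries or the leaf markers have in the levels was not tested.

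Of the 5 remaining genes of BBX18 to BBX32, BBX28 and BBX29 resembled the members with higher levels, and both encode proteins that act against HY5. BBX29 (AT5G54470) had 7.89, 6.66 and 3.23 CPM in brr2a-2 and 0.634, 2.00 and 1.85 CPM in Col, a log2 fold change of 2.01 ± 0.51. BBX28 (AT4G27310) had 106, 84.3 and 50.8 CPM in brr2a-2 and 10.9, 35.2 and 40.9 CPM in Col, a log2 fold change of 1.47 ± 0.50. Neither passed edgeR's quasi-likelihood test, with adjusted p = 0.210 for BBX29 and 0.274 for BBX28, although neither gene's groups overlapped. BBX27 had a log2 fold change of 0.37 ± 0.25 and overlapping groups. BBX23 had at most 1 count in a library and BBX26 had 0 counts in all 6.

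The CONSTANS-like genes of the family are BBX1 to BBX17. Among 14 of its 17 genes tested, 5 had positive and 9 negative log2 fold changes, with a median of -0.22, and edgeR called 0. COL10 (AT5G48250) had 22.2, 24.2 and 24.9 CPM in brr2a-2 and 52.8, 48.0 and 42.0 CPM in Col, a log2 fold change of -1.0 ± 0.16 (edgeR adjusted p = 0.155). COL7 (AT1G73870) had 19.9, 16.8 and 11.7 CPM in brr2a-2 and 0.997, 2.93 and 3.75 CPM in Col, a log2 fold change of 2.68 ± 0.47 (edgeR adjusted p = 0.166). By groups, 3 of the 14 genes lay above Col without overlap (10.8% of all genes tested) and 4 below (10.2%).

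**Figure D2:**
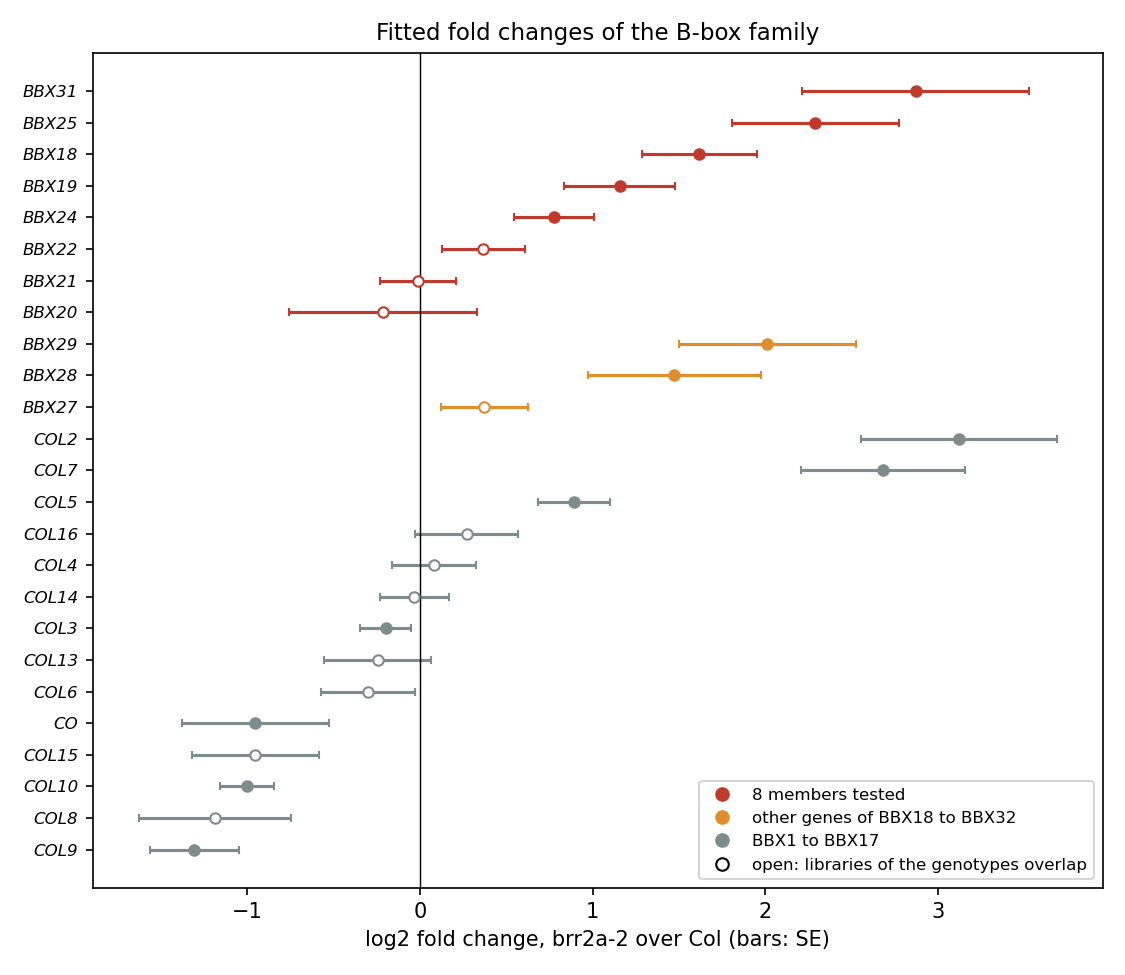
Log2 fold changes of brr2a-2 over Col for the 25 B-box genes that passed the filter, with SE, for the 8 members (red), the other genes of BBX18 to BBX32 (orange) and BBX1 to BBX17 (grey); open circles mark genes whose libraries overlap between the genotypes. The members run from -0.21 for BBX20 to 2.87 for BBX31, and the grey genes from -1.30 to 3.12.

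The partners of the B-box proteins in light signalling included the E3 ligase COP1 with its SPA cofactors, HY5 and its homolog HYH, and the photoreceptors. All 21 genes of this list, chosen with earlier results of these data known, were tested, and edgeR called 0. At an unadjusted p under 0.05 in edgeR, 8 were higher and 1 lower, beside 1326 higher and 1428 lower of all 19121 genes tested. SPA4 (AT1G53090) had 53.1, 49.2 and 27.5 CPM in brr2a-2 and 12.8, 17.0 and 18.1 CPM in Col, a log2 fold change of 1.44 ± 0.28 (edgeR adjusted p = 0.176). The blue light receptor CRY1 (AT4G08920) had 285, 211 and 256 CPM in brr2a-2 and 118, 147 and 174 CPM in Col, a log2 fold change of 0.78 ± 0.22 (edgeR adjusted p = 0.231). HY5 itself had 15.3, 9.99 and 8.96 CPM in brr2a-2 and 7.34, 9.31 and 10.02 CPM in Col, with overlapping groups and a log2 fold change of 0.36 ± 0.25.

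The flavonoid, anthocyanin and light stress genes that HY5 and the B-box proteins control spread widely within each genotype. Of 10 such genes 9 were tested, edgeR called 0, and all 9 overlapped between the genotypes. DFR, an enzyme of anthocyanin synthesis, had 1.20, 7.96 and 0.0556 CPM in brr2a-2 and 63.8, 2.05 and 0 CPM in Col (edgeR adjusted p = 0.532). ELIP2, a light stress protein of the chloroplast, had 2.40, 2.08 and 0.834 CPM in brr2a-2 and 1.51, 0.698 and 0.0527 CPM in Col (edgeR adjusted p = 0.550). Among the 64 candidates of all lists, the genes most like BBX20 over the 6 libraries were MYB12 (r = 0.96) and CHI (r = 0.91), and these 3 genes had their lowest level in replicate 3 of each genotype.

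Of the 10 clock genes listed, 5 lay above Col without overlap (10.8% of all genes tested) and 2 below (10.2%), and edgeR called 0. RVE8, a morning activator of clock genes, had 12.2, 7.58 and 4.39 CPM in brr2a-2 and 0.936, 1.26 and 0.739 CPM in Col, a log2 fold change of 3.04 ± 0.43 (edgeR adjusted p = 0.155). LHY, a morning repressor, had 15.5, 15.0 and 4.34 CPM in brr2a-2 and 1.54, 1.91 and 1.42 CPM in Col, a log2 fold change of 2.84 ± 0.49 (edgeR adjusted p = 0.164). Both were lowest among the brr2a-2 libraries in replicate 3, as were the members and 39.8% of the genes tested. Of the other clock genes, CCA1, PRR9 and PRR7 were lowest there, while TOC1, PRR5, GI, ELF4 and LUX were lowest in replicate 2. The 2 genes below Col were the evening genes TOC1 and LUX, with log2 fold changes of -0.85 ± 0.24 and -1.34 ± 0.34.

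**Figure D3:**
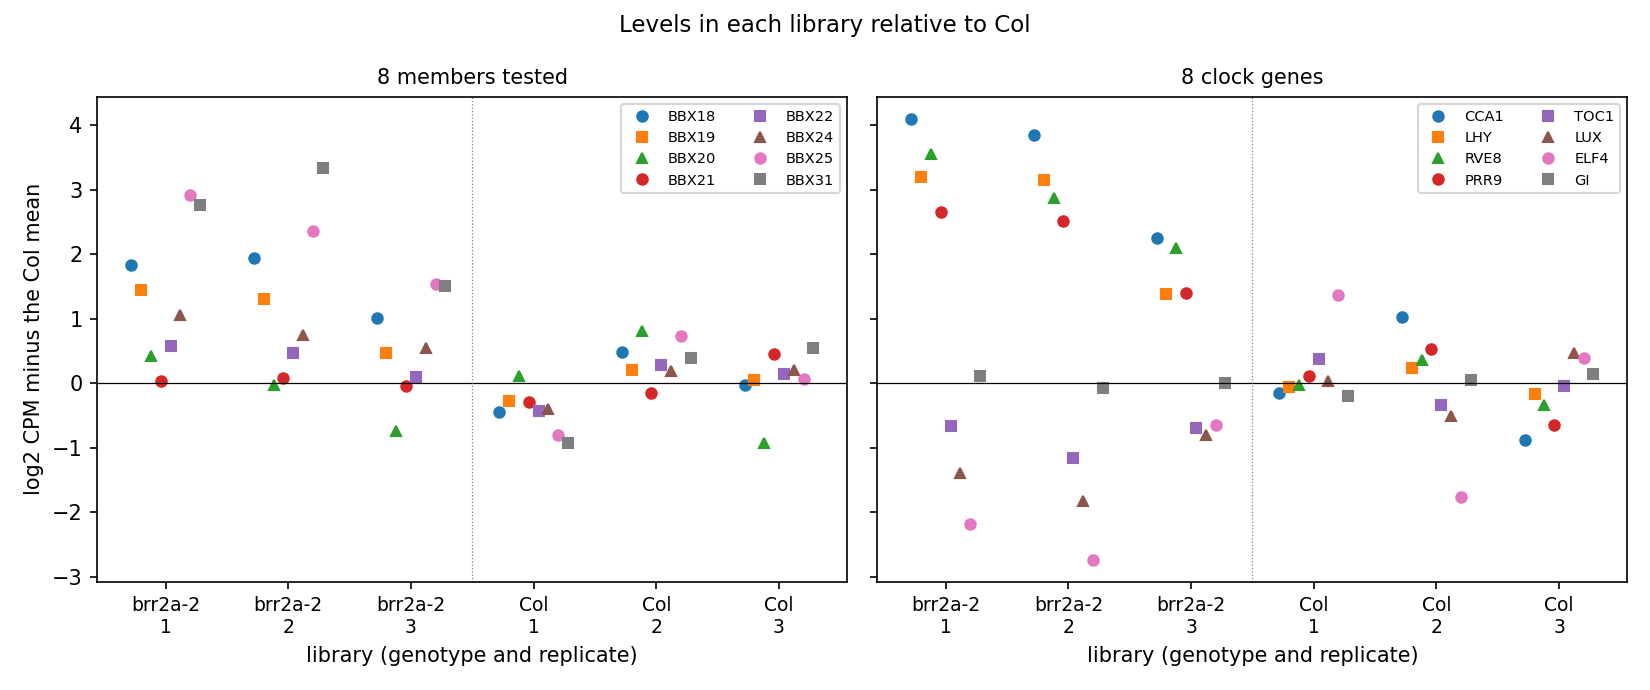
Log2 CPM in each library minus the mean of Col, for the 8 members tested (left panel) and for 8 clock genes (right panel), with a prior count of 2. The brr2a-2 points of BBX18, BBX19, BBX25 and BBX31 and of CCA1, LHY, RVE8 and PRR9 are lowest in replicate 3. Those of TOC1, LUX, ELF4 and GI are lowest in replicate 2, and GI stays near 0 in all 6 libraries.

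DESeq2 called some listed genes that edgeR did not. They were BBX29 higher among the other genes of BBX18 to BBX32, COL2 and COL7 higher and COL9 lower among BBX1 to BBX17, and HYH, SPA3 and SPA4 higher among the partners. They also included CCA1, LHY, PRR9 and RVE8 higher and LUX lower among the clock genes, and 0 of the 8 output genes with an adjusted p. Among the tissue markers DESeq2 called NRT2.1, a nitrate transporter of roots, lower. COL10 and CRY1 had DESeq2 adjusted p = 5.01e-05 and 0.0438. They were not called because their log2 fold changes in DESeq2, -0.992 and 0.784, were under 1 in size. COL2 (771 and 688 bp), LUX (1507 bp), SPA3 (135 bp), COL10 (56 bp) and SPA4 (3 bp) overlap genes on the opposite strand. Their values are uncertain in the same way as that of BBX24.

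The pattern over libraries placed the members next to different genes of the lists, as Pearson's r of log2 CPM over 6 libraries among 64 candidates. BBX25 was most like COL2 (r = 0.99) and SPA3 (r = 0.99), and BBX18 was most like BBX25 (r = 0.98) and COL2 (r = 0.98). BBX24 was most like BBX29 (r = 0.99) and COL2 (r = 0.98), BBX19 most like SPA4 (r = 0.99) and BBX18 (r = 0.98), and BBX31 most like SPA4 (r = 0.98) and BBX29 (r = 0.98). BBX22 was most like COP1 (r = 0.98) and BBX28 (r = 0.95). BBX21 had the weakest likeness, to UVR8 (r = 0.81) and COL14 (r = 0.79). The points share their libraries and the split into 2 genotypes, so the values are a description.

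The introns of the members were read from a second table that counts reads per intron of the same libraries. On chromosomes 1, 2, 4 and 5 the summed intron counts of a gene followed its gene counts, with Spearman's rho across genes between 0.70 and 0.81 in each library. On chromosome 3 rho lay between 0.23 and 0.25, and that chromosome, which holds no intron of a member, was left out. Over whole libraries, 4.50, 4.25 and 3.96 intron counts per 100 gene counts were found in brr2a-2 and 3.57, 2.76 and 2.88 in Col. These totals include chromosome 3 and the chloroplast genes, so they are not on the scale of the rates of single genes. Without chromosome 3, the median log2 ratio of brr2a-2 to Col over 12237 genes was 0.51 for intron counts per 100 gene counts.

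The intron reads of BBX21 did not overlap between the genotypes, while its gene level did. It had 8.79, 9.01 and 11.7 intron counts per 100 gene counts in brr2a-2 and 4.82, 4.93 and 4.29 in Col, a log2 ratio of 1.07. Both of its introns, printed above, lay higher in every brr2a-2 library, with intron 1 at 3.59 ± 1.39 in brr2a-2 and 1.59 ± 0.53 in Col, and intron 2 at 6.23 ± 0.38 in brr2a-2 and 3.09 ± 0.78 in Col (SD, n = 3 each). BBX19 had 19.6, 23.3 and 24.6 intron counts per 100 gene counts in brr2a-2 and 16.1, 8.77 and 13.3 in Col, also without overlap. These rates of BBX19 rest on at most 28 intron counts in a brr2a-2 library and 10 in a Col library.

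Of the 7 members with introns, 2 had higher summed rates in every brr2a-2 library, whereas 38.5% of all such genes did. Intron rates of BBX24 were 5.45, 6.31 and 2.86 in brr2a-2 and 2.04, 3.81 and 2.34 in Col, with overlap. Its intron 2, the retained intron of the second transcript, had rates of 3.00, 3.52 and 1.48 in brr2a-2 and 1.27, 2.33 and 1.33 in Col. Intron 1 of BBX24 had rates of 2.45, 2.80 and 1.38 in brr2a-2 and 0.772, 1.48 and 1.01 in Col. Both introns overlapped between the genotypes, and the rates are not adjusted for intron length. BBX22 had 11.5, 9.68 and 11.2 in brr2a-2 and 6.08, 7.36 and 9.92 in Col, with overlap. Its intron 2 alone lay higher in every brr2a-2 library, at 9.10, 8.08 and 8.78 against 4.83, 5.08 and 7.52 in Col. This held for 21.8% of all single introns. BBX22 has 2 annotated transcripts whose merged exons cover part of its introns, so reads there need not come from retention.

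BBX18 had 26.6, 31.3 and 19.3 intron counts per 100 gene counts in brr2a-2 and 5.30, 15.4 and 19.8 in Col. BBX25 had 14.9, 24.3 and 15.8 in brr2a-2 and 18.3, 14.6 and 6.58 in Col, and BBX20 had 56.3, 45.5 and 27.3 in brr2a-2 and 38.5, 28.6 and 40.0 in Col. All 3 genes overlapped between the genotypes. Intron 1 of BBX18 (382 bp) and intron 1 of BBX25 (345 bp) lay higher in every brr2a-2 library. Over the members' 16 introns with at least 10 counts, 5 lay above Col without overlap and 0 below. Of all 53152 single introns, 21.8% lay above and 766 below. The log2 ratios of the 7 members ran from 0.27 for BBX20 to 1.07 for BBX21, with a median of 0.82. Scaled by total intron counts instead of gene counts, the log2 ratios were -0.32 for BBX20, 0.54 for BBX21, 1.45 for BBX19, 1.93 for BBX18 and 2.22 for BBX25, so the order of the members depended on the scaling.

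**Figure D4:**
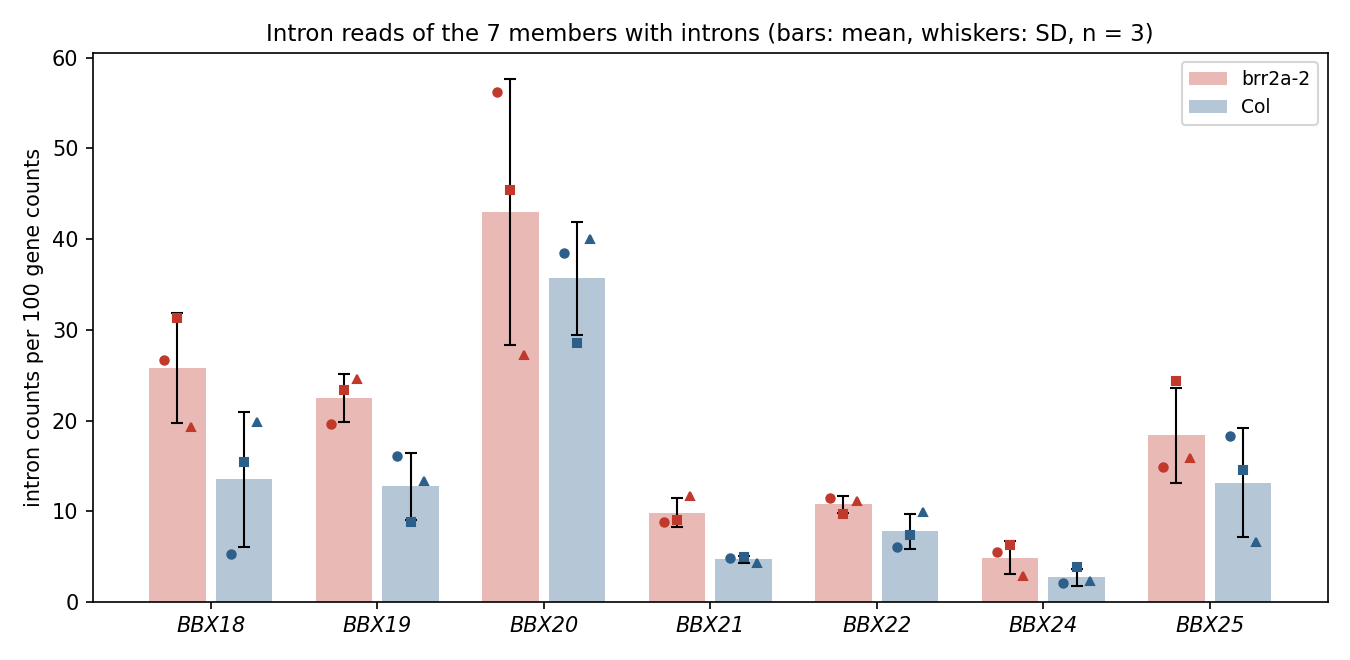
Intron counts per 100 gene counts for the 7 members with introns in brr2a-2 (red, left bar) and Col (blue, right bar), with the mean, the SD and the 3 libraries as points. The groups do not overlap for BBX19 and BBX21 and overlap for the other 5 members.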

How the data were processed

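Ribosomal RNA was removed from total RNA before sequencing. According to the submitters' processing notes, the authors trimmed reads with Trimmomatic 0.32, aligned them to TAIR10 with TopHat2 and counted them with HTSeq. The deposited values are raw counts per gene and raw counts per intron, without normalization, and the strand setting is not given in the sources used here. Genes were fitted with edgeR 4.0.16 in R 4.3.3 after filterByExpr at a minimum count of 10 and TMM scaling, with genotype as the single term and Benjamini-Hochberg adjustment over all genes. A gene was called at an adjusted p under 0.05 if its log2 fold change was also 1 or more in size. DESeq2 1.42.0 (without and with shrunken fold changes), 1 RUVg factor from 5000 genes, other scalings, filters and prior counts, a replicate block and each library left out in turn were alternatives. The procedure was run on simulated counts that had the same dispersion for every gene. They did not carry the spread between these libraries, so that run does not show how the test performs on these data. CPM used TMM factors, and CPM per kb used the merged exon length.

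Positions and sequences came from RefSeq on TAIR10.1, which matched all 10 members. The upstream window of 1 member is not reported here. Of 117457 introns, 94.2% were placed. Deposited intron numbers were taken to run along the chromosome, since counts then correlated with length among the introns of 5352 minus-strand genes (0.42, against -0.03 along the transcript). Introns are named here along the transcript.

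The members and the lists were chosen with earlier results of these data known. Named are all members, the 2 genes with the smallest p in each gene list other than the tissue markers, and the 2 genes most alike to a member. HY5, BBX27, BBX23, BBX26, BBX9, BBX10, TOC1, LUX, GI, ELF4, PRR5, PRR7, the tissue markers given singly and the genes called by DESeq2 were named after their values were seen. Samples are biological replicates per the labels, and whether they came from separate plantings is not stated.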

Additional observations from a re-analysis of the deposited data

How the results depend on the processing

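The median log2 fold change of the members kept its direction under all alternatives run and moved by less than 1 SD between libraries. It ranged from 0.80 to 1.15 when libraries were left out. A single library left out can hardly move it by 1 SD, so those settings are no test of its stability. The count of members without overlap was not taken with DESeq2, and moved by less than 1.5 times elsewhere. With a minimum count of 30 it was 4, of 6 members tested. Leaving a library out can hardly lower this count. The prior count, the replicate block and the RUVg factor do not change the levels that it is taken from. Its steadiness under these settings was therefore fixed in advance. The counts of called genes depended on the tool. DESeq2 called 249 genes higher and 170 lower, DESeq2 with a prior 207 higher and 123 lower, edgeR with 1 RUVg factor 5 higher and 4 lower, and edgeR without a filter on low counts 2 higher and 1 lower. With a library left out, edgeR called between 0 and 1 genes in each direction, and the 1 came without Col replicate 1. The cause of these differences was not tested.

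Deviations of log2 CPM from the genotype mean correlated between libraries of the same number at 0.0416, 0.188 and 0.418 for numbers 1, 2 and 3. Replicates 1 and 2 of brr2a-2 correlated best with Col replicates 2 (0.0615) and 1 (0.246). Replicate 3 of brr2a-2 correlated best with Col replicate 3, and at -0.214 and -0.184 with Col replicates 1 and 2. Whether the libraries numbered 3 share a batch was not tested. With the replicate block, 0 genes were called higher and 0 lower, and the median log2 fold change of the members was 0.95.

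Of 126 alternative log2 fold changes of the members, 125 lay within 1 SD between libraries of the first value, and that of BBX31 fell to 1.57 with a DESeq2 prior. Leaving a library out can hardly move a value by 1 SD, and the other settings refit the same counts. The 125 are therefore no test of stability. BBX20 stayed within 1 SD while its log2 fold change ran from -0.55 to 0.28. DFR ranged from a log2 fold change of -5.07 without brr2a-2 replicate 2 to 1.56 without Col replicate 1. Scaled by total intron counts in place of gene counts, the log2 ratios were 1.93 for BBX18, 1.45 for BBX19, -0.32 for BBX20, 0.54 for BBX21 and 2.22 for BBX25. BBX30 and BBX32 had at most 27 counts in a library, so their levels are limited by depth. The same holds for BBX31 in Col, with at most 11 counts in a library. It also holds for BBX20 in replicate 3, with 10 counts in Col and 11 in brr2a-2.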
